A study of Arabidopsis thaliana with 6 samples.

Results

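The SnRK2 kinases (sucrose non-fermenting 1-related protein kinases of subfamily 2) are the 10 genes *SNRK2.1* to *SNRK2.10* of *Arabidopsis thaliana*, of which *SNRK2.6* is *OPEN STOMATA 1* (*OST1*). They were chosen by their gene loci. Among the 25410 genes with a matched probe on the arrays, all 10 loci were present, with 12 probes among 43603, and 9 of the 10 genes were bright enough to be tested. *SNRK2.1* and *SNRK2.8* had 2 probes each, and such a gene is represented by its brighter probe.

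Gene expression was measured in guard cell protoplasts (GCPs), which are guard cells whose walls have been digested away, from plants of the trichome-less line *gl1* in the Columbia background. SS plants were kept for 5 weeks in short days (8 h light), and SL plants for 3 weeks in short days and then 2 weeks in long days (16 h light). The labels give a light intensity of 100 µmol m-2 s-1 in short days and 41 in long days, and isolation at ZT8 for SS and ZT16 for SL, whereas the methods name the evening time for both groups. Thus day length and light intensity cannot be told apart in these data, and by the labels the time of isolation differed along with them. RNA of 3 independent plant batches per group was hybridized to Agilent single-colour arrays. Replicates of the same number in SS and SL were taken to come from the same batch, which the labels do not state.

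In plant cells, abscisic acid (ABA) binds receptors of the PYR/PYL family, which then inhibit clade A protein phosphatases (PP2Cs). Without ABA these phosphatases hold SnRK2 kinases inactive, and their inhibition, together with phosphorylation by Raf-like kinases, lets SnRK2 kinases phosphorylate channels and transcription factors. Subclass III (*OST1*, *SNRK2.2* and *SNRK2.3*) responds strongly to ABA, and *OST1* is the kinase required for ABA to close stomata, where it phosphorylates the anion channel SLAC1. Subclass II (*SNRK2.7* and *SNRK2.8*) responds weakly to ABA, and subclass I (*SNRK2.1*, *SNRK2.4*, *SNRK2.5*, *SNRK2.9* and *SNRK2.10*) does not respond to ABA, most of its members being activated by osmotic stress instead. Activation of these kinases takes place largely on the protein, which an array of transcripts does not measure.

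Values below are normalized signals in arbitrary units, corrected for background with an offset of 50, and they compare arrays at one probe, not genes with each other. On the 6 arrays, the share of probes well above background was between 65.3% and 70.7%, and no saturation flag was set (0 spots). SL was set against SS with limma over 28852 probes, first without and then with the replicate number (the plant batch) as a block, with Benjamini-Hochberg adjustment and a threshold of 0.05. All 10 guard cell markers tested were well above background on all 6 arrays. Of the 8 mesophyll markers, 5 were lower in SL with the block (*LHCB3*, *LHCB1.3*, *RBCS1A*, *RBCS2B* and *RCA*), where 3.14% of all genes were called lower, whereas *CA1* and *GLDP1* had a higher mean in SL (log2 differences of 0.35 and 0.25, not called). The summed signal of the 8 lay between 82478 and 167325 in SS and between 42119 and 83707 in SL. In bulk RNA, fewer cells of a type and less RNA per cell cannot be told apart.

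*OST1* (AT4G33950, chromosome 4) was measured by a single probe, with a signal well above background in every sample. Its signal was 227, 351 and 508 in SS replicates 1 to 3 and 194, 374 and 357 in SL replicates 1 to 3. The groups overlapped, and replicate 1 was the lowest in both SS and SL. The SL/SS ratio was 0.852, 1.07 and 0.703 in the 3 pairs, that is, below 1 in 2 pairs and above 1 in the other. The log2 difference between SL and SS was -0.22 (SE 0.37, adjusted p = 1.00 from limma without the block). With the block, limma gave an SE of 0.13 and an adjusted p of 0.353. The 95% interval of the SL/SS fold ran from 0.468 to 1.59 without the block and from 0.695 to 1.07 with it. An exact permutation test of 3 arrays against 3 gave p = 0.7 (two-sided, smallest possible p 0.1), and that of the 3 pairs p = 0.5 (smallest possible p 0.25). Within slide 1, which held replicate 1 only, the ratio was the 0.852 above, and over replicates 2 and 3, on slide 2, the log2 difference was -0.21 (adjusted p = 0.626 from limma with the block). Leaving out SS replicate 3 moved the log2 difference to 0.07, and leaving out SL replicate 1 moved it to 0.09.

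The other members of subclass III, *SNRK2.2* (AT3G50500, chromosome 3) and *SNRK2.3* (AT5G66880, chromosome 5), act with *OST1* in ABA responses of seeds and seedlings. *SNRK2.2* had a signal of 654, 660 and 532 in SS and of 664, 709 and 553 in SL (replicates 1 to 3). It was higher in SL in all 3 pairs, by ratios of only 1.01, 1.07 and 1.04, and it gave a log2 difference of 0.06 (SE 0.16, and adjusted p = 0.683 from limma with the block). Its fold was bounded more narrowly than that of *OST1*, with a 95% interval from 0.911 to 1.19 with the block.

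*SNRK2.3* had a signal of 3029, 3095 and 2349 in SS and of 2365, 1880 and 2716 in SL. It was lower in SL in replicates 1 and 2 and higher in replicate 3, with ratios of 0.781, 0.607 and 1.16. The log2 difference was -0.29 (SE 0.19), and limma with the block gave an adjusted p of 0.361. The highest batch mean was 1.11-fold above the lowest. Without replicate 3, the log2 difference with the block was -0.54 (SE 0.12), with an adjusted p of 0.0392 from limma on the 2 pairs left. Without replicate 2 it was -0.07 (adjusted p = 0.873 from limma), and without replicate 1 it was -0.25 (adjusted p = 0.651 from limma).

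**Figure D1:**
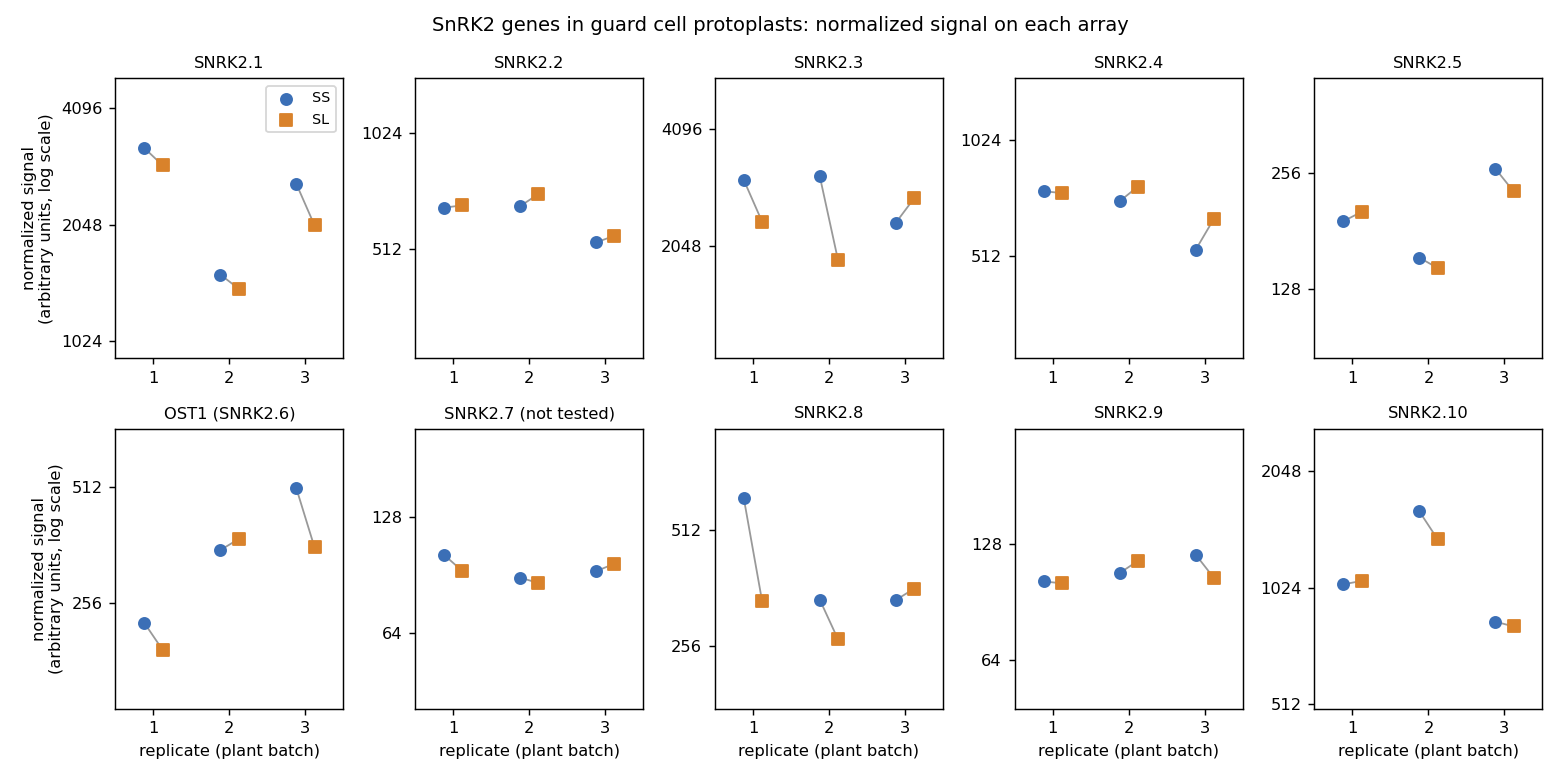
Normalized signal (arbitrary units, log axis) of the 10 SnRK2 genes on each array, by replicate number, with SS as circles, SL as squares and a line joining the arrays of one plant batch. Every panel spans the same fold range. For no gene do all SL points lie on one side of all SS points. In every gene but *SNRK2.3* and *SNRK2.8*, both points of one batch lie below those of the other batches.

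In subclass II, *SNRK2.8* (AT1G78290, chromosome 1), a kinase tied to growth and to systemic immunity, had the largest mean difference of the tested members. Its signal was 616, 337 and 337 in SS and 335, 266 and 360 in SL. SS replicate 1 stood above the other 5 arrays, and the SL/SS ratios were 0.544, 0.790 and 1.07. The log2 difference was -0.37 (SE 0.27), with an adjusted p from limma of 0.267 with the block and a 95% interval of the fold from 0.569 to 1.05. Leaving out SS replicate 1 moved the log2 difference to -0.08. Without replicate 3, it was -0.61 (SE 0.14) with the block, and the adjusted p from limma was 0.0427. The second probe of *SNRK2.8* was dim (between 91.2 and 117), with a log2 difference of -0.17 (SE 0.14), and without replicate 3 limma with the block gave it an adjusted p of 0.174. This probe was well above background on 3 SS arrays and 2 SL arrays. It thus passed the filter through SS alone, and its difference is no independent support.

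*SNRK2.7* (AT4G40010, chromosome 4), which acts with *SNRK2.8* in drought responses, was well above background on 1 of the 3 SS arrays and on 0 of the 3 SL arrays. Its signal was 102, 89.1 and 92.5 in SS and 92.6, 86.2 and 96.7 in SL, and neither a fold nor a test is given for it.

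Among the 5 members of subclass I, *SNRK2.1* (AT5G08590, chromosome 5) was the brightest. Its signal was 3234, 1522 and 2614 in SS and 2916, 1400 and 2040 in SL. Replicate 2 was the lowest in both groups, and SL was below SS in all 3 pairs, with ratios of 0.902, 0.920 and 0.780. The log2 difference was -0.21 (SE 0.36 without and 0.09 with the block), and limma with the block gave an adjusted p of 0.222, the lowest among the tested members. The 95% interval of the fold with the block ran from 0.744 to 1.01. At the second probe of *SNRK2.1*, SL was below SS in 2 of the 3 pairs (ratios of 0.989, 1.02 and 0.804), and the log2 difference was -0.10 (SE 0.16), with a 1.24-fold range between batches in place of 2.1-fold at the first probe.

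*SNRK2.4* (AT1G10940, chromosome 1) and *SNRK2.10* (AT1G60940, chromosome 1) are activated rapidly by salt and osmotic stress in roots. The signal of *SNRK2.4* was 754, 710 and 531 in SS and 746, 775 and 639 in SL, with a log2 difference of 0.13 (SE 0.18, and adjusted p = 0.449 from limma with the block). That of *SNRK2.10* was 1045, 1614 and 837 in SS and 1067, 1368 and 813 in SL, with a log2 difference of -0.08 (SE 0.29, and adjusted p = 0.614 from limma with the block). In *SNRK2.10*, replicate 2 was the highest and replicate 3 the lowest in both groups, and its log2 difference changed sign, to 0.00287, when processed intensities scaled to the 75th percentile were used.

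*SNRK2.5* (AT5G63650, chromosome 5), a further kinase of the osmotic stress response, had a signal of 192, 155 and 263 in SS and of 203, 146 and 230 in SL. Its log2 difference was -0.07 (SE 0.26, and adjusted p = 0.686 from limma with the block), and replicate 3 was the highest in both groups. *SNRK2.9* (AT2G23030, chromosome 2) differs from the rest of the family in that osmotic stress has not been seen to activate it. Its signal lay between 101 and 120 on the 6 arrays, and its log2 difference was -0.04 (SE 0.13), with the opposite sign under 3 other normalizations (0.02 to 0.12).

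**Figure D2:**
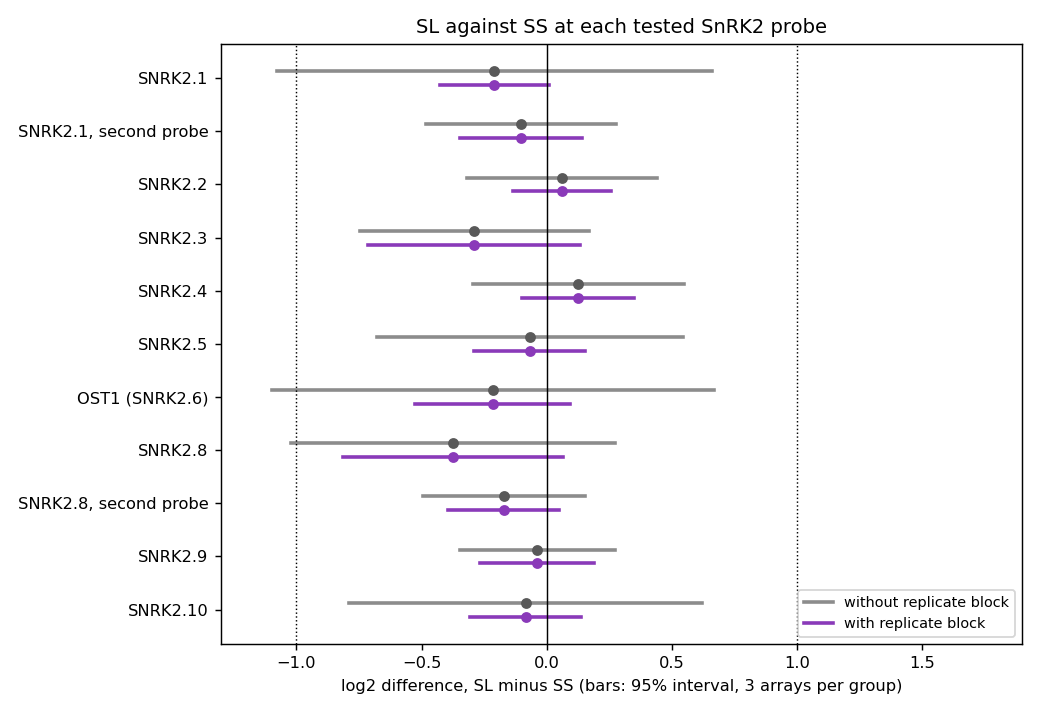
Log2 difference between SL and SS (points) with its 95% interval (bars) at the 11 SnRK2 probes tested, from limma without the replicate block (grey) and with it (purple), 3 arrays per group, with dotted lines at a 2-fold change. All intervals with the block reach across 0 and lie within the dotted lines, and those of *OST1*, *SNRK2.1* and *SNRK2.8* without the block reach beyond a 2-fold decrease.

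Thus, 0 of the 9 members tested had an adjusted p under 0.05 from limma without the block, where 0% of all 17997 genes tested were called. With the block, 0 of the 9 members were called, whereas 4.72% of all genes (1.57% higher and 3.14% lower in SL) and 4.5% of all probes were. At an unadjusted p under 0.05, 0 of the 9 were found in either fit, where the share of all genes was 3.72% without and 25.5% with the block. For 0 of the 9 members all SL arrays lay on one side of all SS arrays, as for 8.21% of all genes. These counts of 0 are at or below the shares of all genes, and among 9 genes they do not set the family apart. SL was above SS in all 3 pairs for 1 member (*SNRK2.2*, 24.6% of all genes) and below it for 1 member (*SNRK2.1*, 24.4% of all genes).

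The median log2 difference of the 9 members was -0.08, against 0.00935 over all genes tested, and it ran from -0.21 (without SL replicate 3) to -0.04 (without SS replicate 3) when an array was left out. The median size of the difference was 0.13, against 0.14 over all genes. By the mean, 7 members were lower and 2 higher in SL, but the split was 5 to 4 with processed intensities scaled to the 75th percentile and 6 to 3 under a pair of other normalizations. All 9 differed by less than 1.3-fold by the mean log2 signal. *SNRK2.8* lay closest to that bound. It passed the bound with means of unlogged signals (log2 difference of -0.42) and with processed intensities scaled to the 75th percentile (-0.53). With the block, the 95% interval of the fold lay within a 2-fold change either way for all 9 members and within 1.5-fold for 7, and without the block it lay within a 2-fold change for 6. The calls of *SNRK2.3* and *SNRK2.8* without replicate 3 made 2 of 9 members called, both lower in SL, where that fit called 8.09% of all genes (4.76% lower).

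The members also differed between plant batches. For 8 of the 9 members (all but *SNRK2.3*) the range between the batch means of log2 signal exceeded the size of the SL minus SS difference, as for 88.2% of all genes. A range over 3 means and a difference between 2 means are not alike, so these counts do not compare both sources of variation, and a member's range is read here against that of other genes. The highest batch was, at the median of the 9 members, 1.52-fold above the lowest, against 1.34-fold over all genes, and 5 of the 9 members were above the median gene. Among these 5 were *SNRK2.1* and *SNRK2.8*, whose second probes had ranges below that of the median gene (1.24-fold and 1.16-fold). The batch means of *OST1* were 210.0 in replicate 1, 362 in replicate 2 and 426 in replicate 3, a 2.03-fold range that was wider than that of 90.9% of all genes. Replicate 1 was the lowest and replicate 3 the highest for *OST1* under all 6 normalizations compared, with a range between 2.03-fold and 2.86-fold. *SNRK2.1* had a 2.1-fold range with replicate 2 the lowest, and *SNRK2.10* a 1.80-fold range with replicate 3 the lowest. The family had no batch pattern in common, as each of the 3 batches was the lowest for some members. As replicate 1 lay on a slide of its own, its plant batch and slide cannot be told apart.

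**Figure D3:**
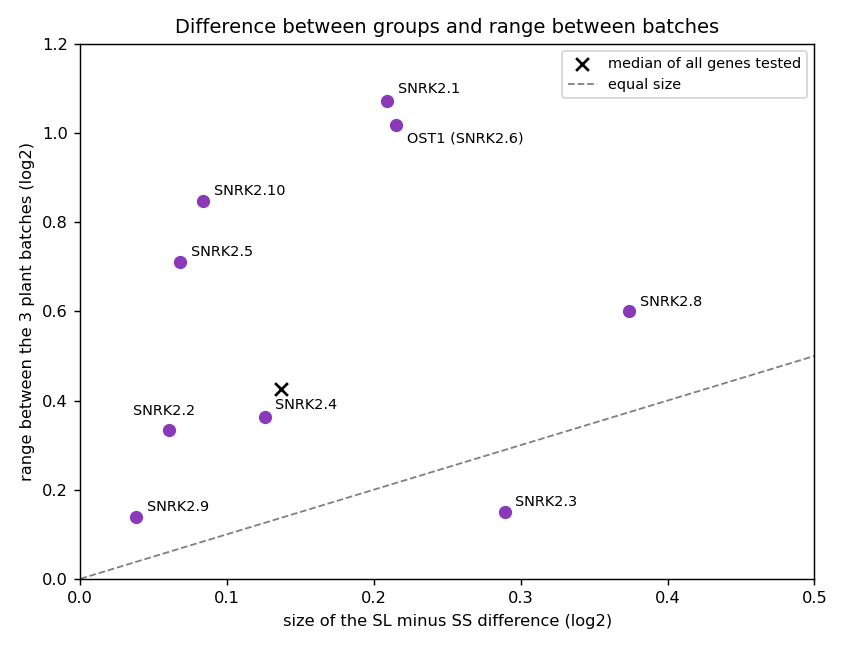
Range between the means of the 3 plant batches (log2, vertical axis) against the size of the SL minus SS difference (log2, horizontal axis) for the 9 SnRK2 genes tested, with the median of all genes tested as a cross and a dashed line where both are equal. All members but *SNRK2.3* lie above the line, as do 88.2% of all genes, and *SNRK2.1* and *OST1* lie farthest up. The second probes of *SNRK2.1* (1.24-fold range) and *SNRK2.8* (1.16-fold range) are not shown.

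Across the 6 arrays, taken to share 3 plant batches in pairs, *OST1* correlated most with *SNRK2.9* (Pearson's r = 0.87) among the members and least with *SNRK2.4* (r = -0.70). The probe of *SNRK2.9* was dim, with a signal between 101 and 120, next to the 86.2 to 102 of the untested *SNRK2.7*. Its r thus rests on small differences near the background. *SNRK2.2* went with *SNRK2.4* (r = 0.93), and *SNRK2.5* opposite to *SNRK2.10* (r = -0.93). The 5 genes with a pattern most like *OST1* among 17988 were AT4G18740 (r = 0.99), the selenium-binding protein gene *SBP3* (r = 0.99), *VTC5* of ascorbate synthesis (r = 0.99), AT3G51870 (r = 0.99) and AT1G79080 (r = 0.99). As 273 genes exceeded r = 0.9 over these 6 arrays, the order among them carries little weight. None of the 5 was called with the block, and their adjusted p-values from limma lay between 0.552 and 0.817.

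Guard cell markers differed in how far they followed *OST1*. Of the 10, 3 had r above 0.5, namely the channel genes *KAT2* (r = 0.89) and *SLAC1* (r = 0.86) and the blue light signalling kinase gene *BLUS1* (r = 0.77). The others did not follow it: *GORK* (r = 0.18), *HT1* (r = 0.16), *FAMA* (r = 0.11), *CYP86A2* (r = 0.04), *MYB60* (r = 0.02), *ALMT12* (r = -0.23) and *KAT1* (r = -0.31). For the 8 mesophyll markers, r with *OST1* ran from -0.64 to 0.37. The summed signal of the 10 guard cell markers lay between 83021 and 100237 in SS and between 82452 and 93475 in SL, with 0 of 10 called in either fit and a median log2 difference of -0.08. The 4 vascular markers were all well above background and had r between -0.90 and -0.29 with *OST1*. Their summed signal was 7149, 4017 and 3764 in SS and 4044, 2263 and 2076 in SL, highest in replicate 1, where *OST1* was lowest. Among them *SWEET11*, a sucrose efflux carrier gene of the phloem, was called lower in SL with the block. Without *SWEET11*, a sum added after seeing the data, the values were 2437, 1370 and 1059 in SS and 2019, 1209 and 1074 in SL, again highest in replicate 1 but not lower in SL in each pair. *SUC2* was higher in SL in all 3 pairs (ratios of 1.09, 1.02 and 1.08) and *HB8* in 2 of 3. Of the 3 epidermal markers, *FDH* (r = 0.82) and *ATML1* (r = 0.70) followed *OST1* and *PDF1* (r = -0.39) did not, with 0 of 3 called with the block and summed signals between 6543 and 16010 in SS and between 6687 and 9917 in SL. The part of other cell types in the values of *OST1* was not tested.

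**Figure D4:**
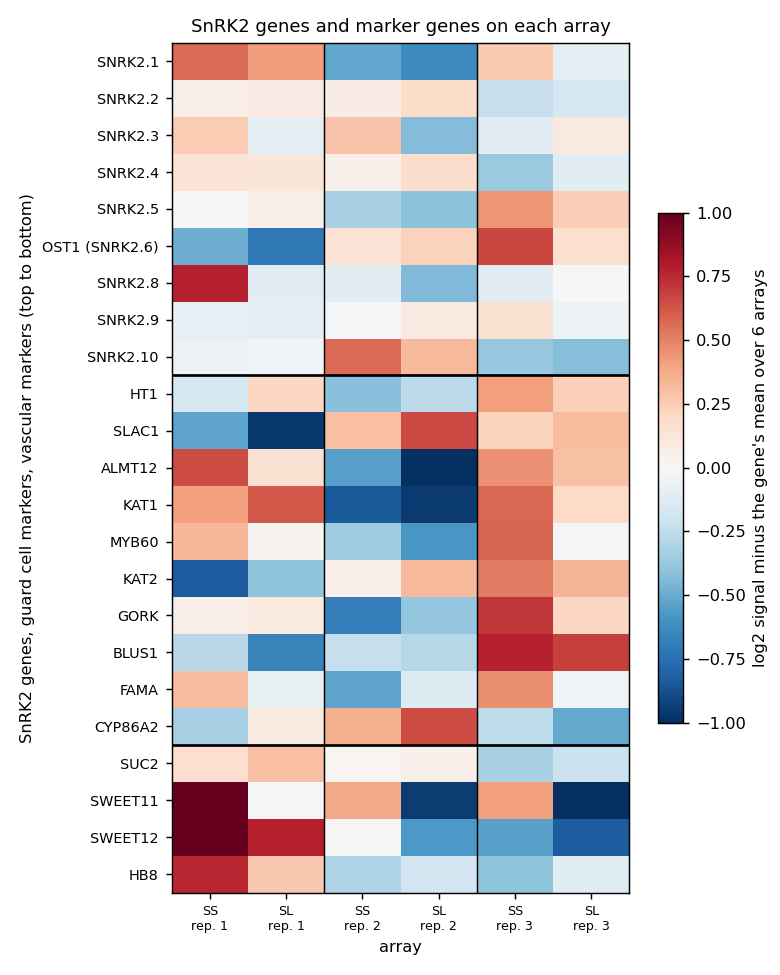
Log2 signal of 9 SnRK2 genes, 10 guard cell markers and 4 vascular markers on each array (columns, paired by plant batch) minus the mean of the gene over the 6 arrays (colour, from -1 to 1). *OST1* is low on both arrays of replicate 1, as are *SLAC1* and *KAT2*, whereas the vascular genes *SWEET12* and *HB8* are highest on SS replicate 1.

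Genes that act on or below SnRK2 kinases were then examined, in 6 lists of 65 tested genes without the SnRK2 genes. Without the block, 0 of the 65 were called, and with the block 2 were, both higher in SL. With the block, 4.72% of all genes were called in either direction and 1.57% were called higher. All 14 ABA receptors had a probe, and 9 passed the filter and were tested. *PYL6* (AT2G40330), one of the ABA receptors, was the called one, with a signal of 2091, 2781 and 2457 in SS and of 3925, 3933 and 3532 in SL. All SL arrays lay above all SS arrays, and the log2 difference was 0.64 (SE 0.15 without and 0.11 with the block, and adjusted p = 0.0364 from limma with the block). The call was lost without replicate 1 (adjusted p = 0.139 from limma) and without replicate 2 (adjusted p = 0.179 from limma), and under 3 of 5 other normalizations (adjusted p between 0.0559 and 0.0907 from limma with the block). The log2 difference was 0.51 and 0.72 without those pairs and between 0.68 and 0.77 under those normalizations. Of the 9 clade A PP2Cs, 7 were tested and 0 called, with log2 differences between -0.10 and 0.26.

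Raf-like kinases of groups B2 to B4, some of which phosphorylate SnRK2 kinases, were tested for 16 of 19 genes, with 0 called in either fit. Of the 16, 12 had a higher and 4 a lower mean in SL, and 8 were higher in all 3 pairs (24.6% of all genes were). The median log2 difference of 0.18 stayed between 0.10 and 0.25 over the 25 settings run. These settings did not all give separate estimates. Adding a block over the same arrays, or changing the filter on dim probes, left the median of each list unchanged. *CTR1* (AT5G03730), known as the negative regulator of ethylene signalling, was the Raf-like kinase whose groups did not overlap (1 of 16, where 8.21% of all genes did not). Its signal was 615, 810 and 778 in SS and 902, 991 and 936 in SL, with a log2 difference of 0.37 (SE 0.15, and adjusted p = 0.0854 from limma with the block). Of 8 other regulators of SnRK2 kinases, among them *BIN2*, *BAK1* and the casein kinase 2 subunits, 0 were called, with log2 differences between -0.24 and 0.33.

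Of the 14 SnRK2 substrates, all tested, 0 were called in either fit, with a median log2 difference of -0.13. Over the 25 settings, several of which repeat an estimate, this median ran from -0.22 (without SL replicate 3) to -0.02 (processed intensities scaled to the 75th percentile). *ABF4* (AT3G19290), a transcription factor of the ABA response, was the substrate whose groups did not overlap (1 of 14, where 8.21% of all genes did not). Its signal was 5199, 4922 and 4995 in SS and 3210, 3943 and 4520 in SL, a log2 difference of -0.39 (SE 0.16, and adjusted p = 0.131 from limma with the block). ABA-induced genes were tested for 11 of 12. Of these, *HB12* (AT3G61890), a homeodomain-leucine zipper factor induced by ABA and drought, was called higher in SL with the block. Its signal was 1700, 1134 and 1511 in SS and 2268, 1474 and 2367 in SL, with a log2 difference of 0.48 (SE 0.24 without and 0.09 with the block, and adjusted p = 0.0471 from limma with the block). The groups overlapped, and SL was higher in all 3 pairs. The call did not hold under any of 5 other normalizations with the block (adjusted p between 0.0542 and 0.146 from limma), nor without any of the 3 pairs (adjusted p between 0.0545 and 0.202 from limma), while the log2 difference stayed between 0.48 and 0.63 and between 0.40 and 0.53, respectively. The median log2 difference of the 11 genes was 0.23. Over the same 25 partly repeated settings this median ran from 0.07 (without SS replicate 2) to 0.53 (processed intensities scaled to the 75th percentile). By the mean, 8 were higher and 3 lower in SL. In all 3 pairs, 6 were higher (24.6% of all genes were) and 2 were lower (24.4% of all genes were).

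**Figure D5:**
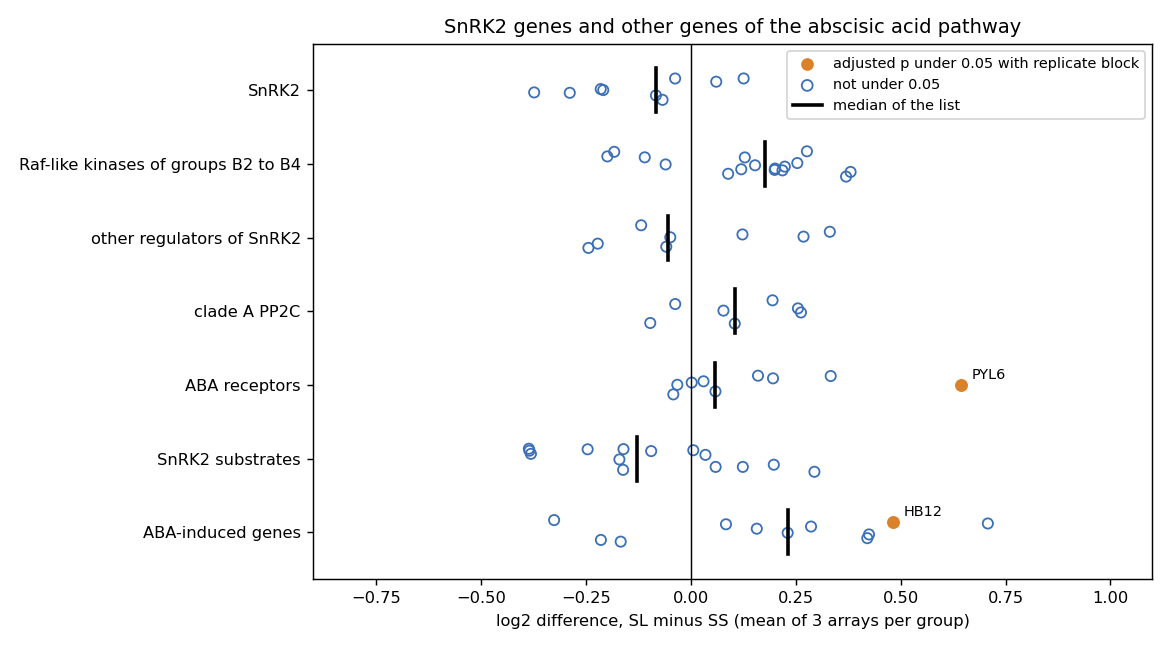
Log2 difference between SL and SS (horizontal axis, means of 3 arrays per group) of each tested gene in the SnRK2 family and in 6 lists of other genes of the ABA pathway (rows), with black bars at the median of each list and filled points for genes called by limma with the replicate block. *PYL6* and *HB12* are the filled points, and the SnRK2 genes lie between -0.37 and 0.13.

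By the brightness of their probes, the members spread over much of the range of the array. Averaged over the arrays, the percentile among all probes was 90.8 for *SNRK2.3*, 89.2 for *SNRK2.1*, 81.4 for *SNRK2.10*, 74.6 for *SNRK2.4*, 73.1 for *SNRK2.2*, 63.7 for *SNRK2.8*, 61.5 for *OST1*, 52.4 for *SNRK2.5*, 38.6 for *SNRK2.9* and 30.3 for *SNRK2.7*. Brightness depends on the probe as well as on the transcript, so this is no order of transcript levels. The percentile of *OST1* was 62.8 in SS and 60.1 in SL, and over single arrays it ran from 52.5 to 69.6. Neighbours in this order overlapped in their percentiles on single arrays, except *SNRK2.10* with *SNRK2.4* and *SNRK2.5* with *SNRK2.9*. The sequences of the probes were not used here, so that cross-hybridization between close relatives in the family was not tested.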

How the data were processed

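RNA of GCPs from SS and SL plants was measured on 6 single-colour arrays, 3 per group, grouped by their labels. The authors read the spots out in Agilent Feature Extraction 11.5.1.1, and each array's deposited intensity values stand without normalization across arrays. The processed intensity also makes up the deposited series matrix.

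The median pixel intensity was corrected by normexp with the local background and an offset of 50, quantile normalized over 6 arrays and converted to log2 in R 4.3.3 with limma 3.58.1. Outlier-flagged spots (between 3 and 7 per array) were removed before replicate spots of a probe were averaged. The filter kept the 28852 of 43603 probes that stood well above background in every array of SS, of SL or of both. Of all probes, 34348 (78.8%) were matched to a locus through their accessions and a RefSeq table, and a gene with several probes was represented by the brightest. The number of arrays limited the precision.

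SL was compared with SS by limma, without and with the replicate number as a block, with adjustment over all probes kept. The samples were paired by their numbers: the series text gives a plant batch per experiment, and deviations of same-numbered arrays correlated at 0.723, 0.866 and 0.756. As replicate 1 lay on a slide of its own, these correlations cannot tell a shared plant batch from a shared slide. Arrays of unlike number were not correlated in this way, so the pairing itself was not tested. Exact permutation tests were used for single genes. The SnRK2 genes and the lists of pathway genes and markers were chosen with earlier results of these data known. From each list, genes called were named, or otherwise up to 2 whose groups did not overlap. Some Raf-like kinases have no symbol in the table and are not named.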

Additional observations from a re-analysis of the deposited data

How the results depend on the processing

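The count of 0 SnRK2 genes called held under all alternatives run except the block without replicate 3 (2 called), so that it ran from 0 to 2 when a pair or an array was left out. For *OST1*, the log2 difference stayed between -0.26 and -0.21 under the other normalizations, but ran from -0.51 to 0.090 when an array or a pair was left out. That range was -0.52 to 0.058 for *SNRK2.1*, -0.041 to 0.16 for *SNRK2.2*, -0.028 to 0.22 for *SNRK2.4*, -0.25 to 0.14 for *SNRK2.5* and -0.29 to 0.18 for *SNRK2.10*, each on the log2 scale. For *SNRK2.9* it was -0.094 to 0.027 without an array, and -0.11 to 0.043 with the block and without a pair. *SNRK2.3* (-0.54 to -0.07) and *SNRK2.8* (-0.61 to -0.08) kept their sign in all settings. With and without the replicate block, *SNRK2.9* turned to 0.019 with processed intensities scaled to the 75th percentile, to 0.12 with normexp scaled to the 75th percentile and to 0.071 with the series matrix values, and *SNRK2.10* to 0.00287 with the first of these. The cause was not tested.

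Over the whole array, limma called 0 probes without the block (1185 at an unadjusted p under 0.05) and 1297 with the replicate block. With the block, the number was 561 with processed intensities and 47 with normexp, both scaled to the 75th percentile, 1091 with quantile normalization by slide, 1369 with an offset of 0 and 685 with the series matrix values. It ran from 0 (without replicate 2) over 51 (without replicate 1) to 2609 (without replicate 3). Of the 65 pathway genes, the block called 2, or 1 with quantile normalization by slide and 1 with an offset of 0 (*PYL6* in both), and 0 under the other 3 normalizations. Leaving out a pair gave 0 to 4, where the 4 without replicate 3 were *PYL6*, *ALMT12*, *ABF4* and *COR15A*, named after their values were seen. These pathway counts, the family median and the spread between batches under other settings were added after seeing the data. The mean pixel intensity was not run as an alternative. The number of arrays, 3 per group, limits what could be detected, as the 95% intervals of the members show.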
